A study of Mus musculus with 2 samples.

Results

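Xbp1, Mzb1, Derl3, Sdc1, Pou2af1, Hspa5, Hsp90b1, Edem1 and Creld2 are 9 genes of the plasma cell secretory programme, chosen by name from the 26981 genes of the deposited tables and described here across the immune cells of mouse fat. CD45+ cells were captured with magnetic beads from the visceral adipose tissue (eWAT in the labels) of wildtype C57BL/6 mice aged 15 weeks. One library (NW) came from mice that drank normal water, and the other (ABX) from mice given antibiotics (a mixture of ampicillin, streptomycin, colistin and vancomycin is among the antibiotic treatments of the study), so the comparison asks how these genes stand in fat immune cells after the gut microbiota has been depleted. Each condition had 1 library, and the sources used here do not give the number of mice behind it, so no value below has a replicate check and no test between conditions was possible. Intervals are 95% intervals of counting error only.

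A plasma cell is a B lineage cell that secretes antibody. Its endoplasmic reticulum (ER) folds, assembles and inspects immunoglobulin chains before they leave the cell, and the unfolded protein response matches the folding machinery to that load. Among the 9 genes, Xbp1 encodes the transcription factor that is made active by IRE1-dependent splicing, and Pou2af1 encodes OBF-1, the B lineage coactivator of octamer-binding factors. Hspa5 (BiP), Hsp90b1 (GRP94), Mzb1 and Creld2 encode ER proteins of folding and assembly, Edem1 and Derl3 take part in the removal of misfolded proteins from the ER, and Sdc1 encodes syndecan-1 (CD138), the surface proteoglycan by which plasma cells are commonly recognised.

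The counts are unique molecular identifiers (UMIs, one for each captured molecule) per gene and cell. Cells with at least 500 gene UMIs, 200 genes and at most 25% mitochondrial UMIs were kept, which left 12474 of 17662 barcodes in NW (median 5092 UMIs) and 12724 of 17785 in ABX (median 3845.5 UMIs). Of the cells kept, 196 in each library carried a cell label that the other library also held. A level is given as CPM, the UMIs of a gene in 1000000 gene UMIs of the cells summed. It counts transcripts from their 3' ends and is compared only between cells for the same gene.

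Clustering placed 163 NW cells and 260 ABX cells, 1.31% and 2.04% of each library, in 1 plasma cell-like cluster. The cluster was named from a list of marker genes, none of which is a member. Their detection in it thus describes the name and does not test it. Jchain, the joining chain of polymeric antibody, was detected in 100% of these NW cells and 99.2% of these ABX cells, against 22.5% and 23.6% of all other cells. Prdm1, the gene of the regulator Blimp-1, was detected in 79.1% and 78.1% against 6.82% and 6.11%, and Eaf2 in 74.8% and 76.9% against 0.869% and 1.31%. Tnfrsf17 (BCMA, a survival receptor) was found in 57.7% and 42.7% of them. Irf4 was detected in 65.6% and 64.6% against 9.55% and 7.11%. The heavy chain gene Igha was found in only 18.4% and 12.7%, against 4.98% and 2.45%. Igkc, the kappa light chain gene, was detected in all of them but also in 95.4% and 97.3% of all other cells, so a UMI of an abundant antibody gene does not mark a cell here. The heavy chain with the most UMIs was Ighm in 157 of 163 NW cells (96.3%) and 249 of 260 ABX cells (95.8%), and Igha, the IgA heavy chain, led in 2 and 1. The plasma cell-like cells were thus mostly IgM-expressing, and immunoglobulin genes held 43.8% of their UMIs in NW and 41.4% in ABX. Their median depth was 13803 UMIs in NW and 11513.5 in ABX. Macrophage markers (10 genes, none at 0 in either library) summed to 1223 CPM in the NW and 978 in the ABX plasma cell-like cells, against 23606 and 20517 in macrophage-like cells. At least 3 UMIs of that list were present in 96.9% of the NW and 86.9% of the ABX plasma cell-like cells. B cell markers (8 genes, none at 0) summed to 1390 CPM in NW and 1556 in ABX, with at least 3 UMIs in 97.5% and 95.8% of the cells, so the lists moved in opposite directions between the libraries. The part of these markers in the members' levels was not tested.

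Every member was detected in most plasma cell-like cells. All 9 members were found together in 119 NW cells (73.0%) and 151 ABX cells (58.1%), and 8 or 9 of them in 91.4% and 86.9%. Macrophage-like cells, which were shallower, seldom held 8 or 9 members (0.0511% in NW, 0.236% in ABX). Since the members took part in the clustering, their levels by class are a description. When the cells were clustered again without the members, the pathway genes and the plasma cell and B cell markers, 8 members again had their highest level in the plasma cell-like cluster, as in each of the 5 clusterings made.

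**Figure D1:**
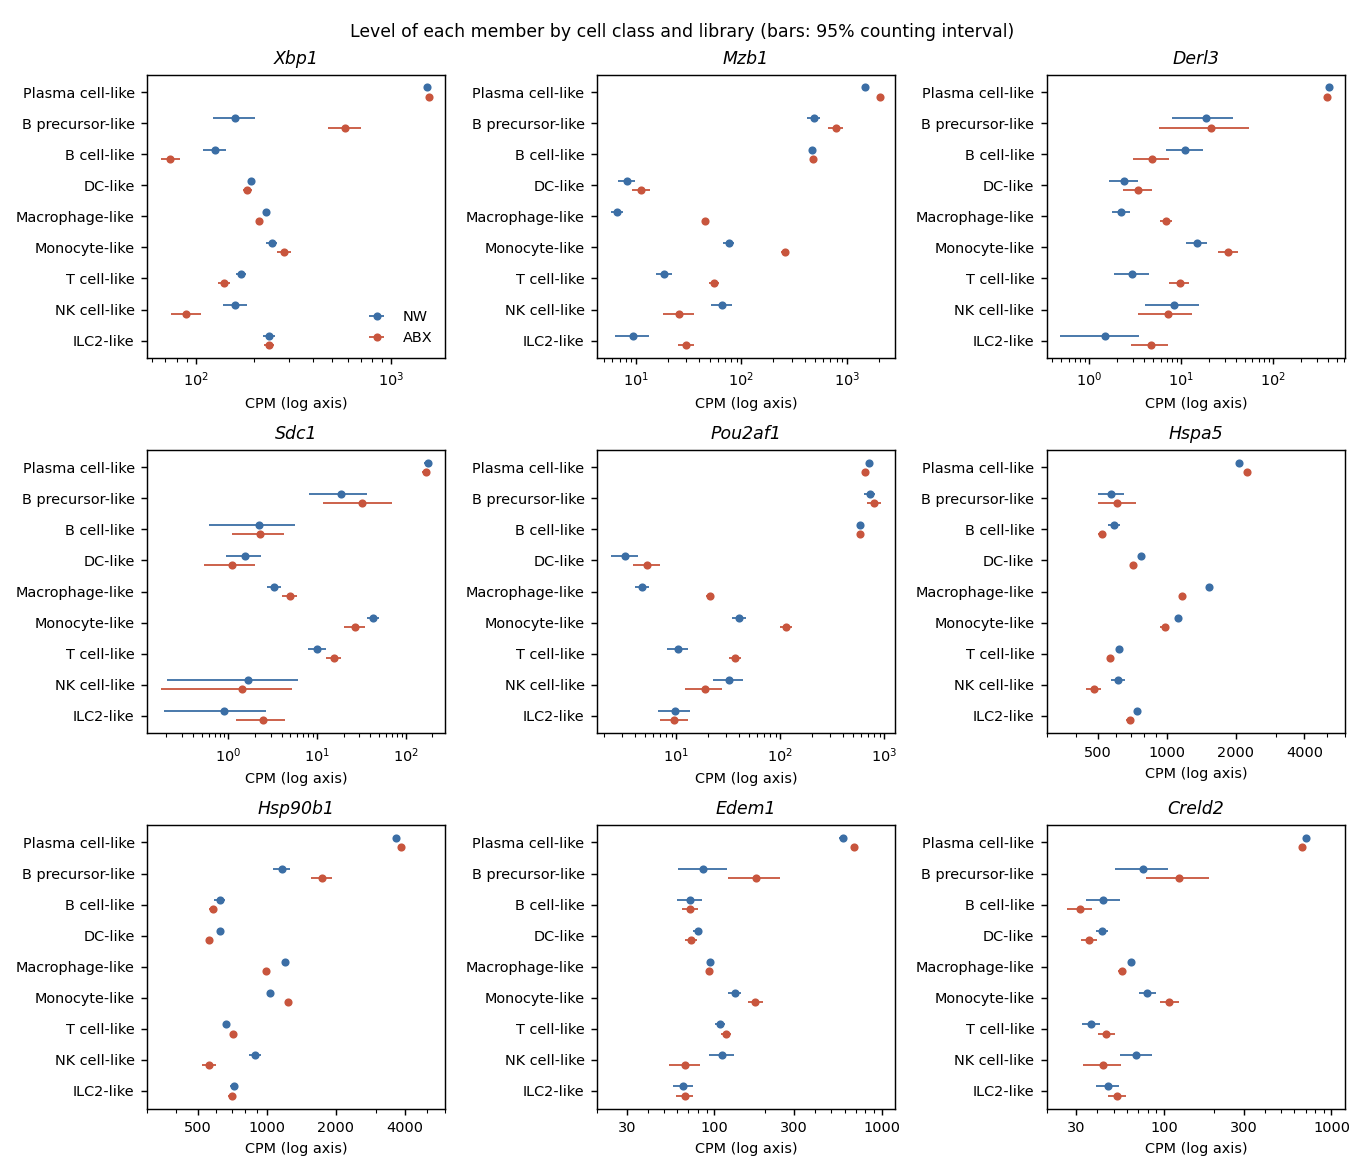
Level of each member (CPM, log axis) in 9 cell classes, with NW in blue and ABX in red and bars for the 95% counting interval. Plasma cell-like cells stand highest for 8 of the 9 genes, while Pou2af1 is as high in B precursor-like cells, and the Mzb1 levels of the libraries lie far apart in macrophage-, monocyte- and T cell-like cells.

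Among the regulators, Xbp1 (chr11:5520659-5525893, plus strand, GRCm38) stood at 1531 CPM (95% interval 1479 to 1583) in NW plasma cell-like cells and 1571 (1526 to 1616) in ABX. It was detected in all 163 NW cells and in 98.5% of the ABX cells, with a median of 18 UMIs per cell in NW and 15 in ABX. It was 7.31-fold and 8.53-fold higher than in all other cells summed, and was present in every other class. Levels there ran in NW from 126 in B cell-like cells to 329 in neutrophil-like cells, and in ABX from 74.3 in B cell-like to 583 in B precursor-like cells. B cell-like cells thus had the lowest Xbp1 level of the 12 classes in both libraries. Their interval overlapped those of B precursor-like and NK cell-like cells in NW, and of NK cell-like and neutrophil-like cells in ABX. The ABX B precursor-like value rests on 1 cell of 26, with 31046 UMIs, which held 90.8% of that class's Xbp1 UMIs.

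Pou2af1 (chr9:51213708-51240080, plus strand) marked the B lineage as a whole. Its level was 710 CPM (675 to 746) in NW and 654 (625 to 684) in ABX plasma cell-like cells. B precursor-like cells had 720 and 797, and B cell-like cells 587 and 584. The intervals of B precursor-like and plasma cell-like cells overlapped in both libraries. In DC-like cells Pou2af1 stood at 3.21 and 5.18. Plasma cell-like cells were 27.3-fold and 9.67-fold above all other cells, a class that includes the B cell-like cells.

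Of the chaperone genes, Hsp90b1 (chr10:86690209-86705509, minus strand) stood at 3671 CPM (3591 to 3752) in NW and 3860 (3790 to 3931) in ABX plasma cell-like cells. Hspa5 (chr2:34771970-34777547, plus strand) stood at 2075 (2015 to 2136) and 2245 (2191 to 2299). These general ER chaperones were the members least set apart by class. Hspa5 was 1.81-fold higher in plasma cell-like cells than in all other cells summed in NW and 2.64-fold in ABX, and Hsp90b1 was 3.83-fold and 4.83-fold higher. The class next to plasma cell-like cells for Hspa5 was macrophage-like, at 1534 in NW and 1164 in ABX. Creld2 (chr15:88819646-88826683, plus strand), an ER protein induced by ER stress, stood at 708 (673 to 744) and 667 (638 to 697), and was 12.7-fold and 13.4-fold above all other cells.

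Mzb1, which encodes a BiP-associated protein of IgM assembly in marginal zone B cells and plasma cells, stood at 1494 CPM (1443 to 1546) in NW and 2074 (2023 to 2126) in ABX plasma cell-like cells. B cell-like cells had 467 and 479, and DC-like cells 8.18 and 11.2. The level was 54.9-fold and 25.7-fold that of all other cells. Mzb1 thus followed the B lineage like Pou2af1, but was higher in its secreting cells. The share of cells with an Mzb1 UMI was 98.2% in NW and 95.4% in ABX plasma cell-like cells. In macrophage-like cells, leaving out those with at least 10 Mzb1 UMIs, it was 2.10% and 3.36% at median depths of 5647 and 4073.5 UMIs. The source of these UMIs was not tested.

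Derl3 (chr10:75893413-75895941, plus strand) was the member most restricted to plasma cell-like cells. It stood at 403 CPM (377 to 431) in NW and 390 (368 to 413) in ABX, and was 123-fold and 56.2-fold above all other cells. B cell-like cells had 11.2 and 4.85. Edem1 (chr6:108828641-108859356, plus strand), the other gene of ER-associated degradation, stood at 584 (553 to 617) and 683 (654 to 713). It was 6.29-fold and 7.54-fold above all other cells.

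Sdc1 (chr12:8771323-8793715, plus strand) was detected in 82.8% of NW and 74.6% of ABX plasma cell-like cells, at 177 CPM (160 to 196) and 168 (153 to 183), 30.7-fold and 24.0-fold above all other cells. The median cell held 2 Sdc1 UMIs in NW and 1 in ABX, so a missing UMI does not mark a cell as negative at this depth. Thinned to 1000 UMIs a cell, the shares with a UMI would be 16.0% and 14.3%. Other cells held Sdc1 too. Monocyte-like cells had 43.4 in NW and 26.7 in ABX, and the γδ T-like cluster led by Cd163l1 had 47.9 and 38.3, with a UMI in 14.3% and 8.28% of its cells. A T cell-like cluster led by Il18r1 had 44.2 and 58.5. B cell-like cells stood at 2.23 and 2.31, below these T cell clusters.

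Over all 9 members, 8 were at least 2-fold higher in plasma cell-like cells than in all other cells in both libraries, with Hspa5 as the exception. Of the 10931 genes with enough UMIs in both libraries, 3.05% did so. Of the lists of related genes, 6 of 10 regulators, 12 of 19 chaperones, 6 of 10 genes of ER-associated degradation, 11 of 22 of the translocon and glycosylation, and 4 of 14 of ER to Golgi traffic did. Because the clusters were made from these genes, the counts describe the cluster and test nothing.

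**Figure D2:**
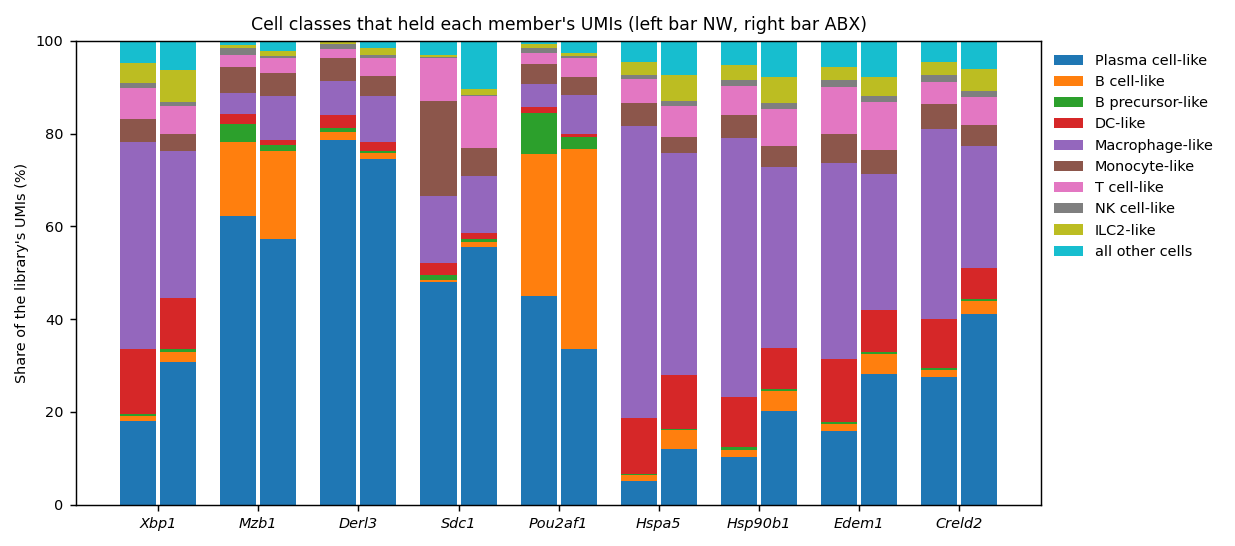
Share of each library's UMIs of each member (percent) by cell class, with NW as the left and ABX as the right bar of each pair. Plasma cell-like cells held 78.6% and 74.6% of the Derl3 UMIs but 5.17% and 12.1% of the Hspa5 UMIs.

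Few cells held much of what the whole sample would show. Plasma cell-like cells held 62.3% of the NW and 57.2% of the ABX UMIs of Mzb1, 48.0% and 55.6% of Sdc1, and 45.1% and 33.5% of Pou2af1. For Pou2af1, B cell-like cells held 30.4% and 43.1%. For Xbp1 the plasma cell-like share was 17.99% and 30.8%, and macrophage-like cells held 44.4% and 31.7%. Hspa5 lay mostly in macrophage-like cells, at 63.0% and 47.8%.

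The promoters of the members are shown because several of these genes are textbook targets of the unfolded protein response. The windows run from 250 bases before to 50 after the start of each gene (RefSeq, GRCm38.p6). Those of 8 of the 9 members were searched, and Mzb1 was left out, so its promoter is not described. The ER stress response element (ERSE), CCAAT and CCACG with 9 bases between them on either strand, was found in 4 of these 8, Derl3, Hspa5, Hsp90b1 and Creld2, and in 39 of all 32851 windows (0.119%). Each site is printed along the strand of its gene with 5 flanking bases, and capitals mark the conserved letters, which read as the reverse complement where the element lies on the opposite strand:
Hspa5, chr2:34772020-34772048, plus: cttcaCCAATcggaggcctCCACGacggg
Hsp90b1, chr10:86705633-86705661, minus: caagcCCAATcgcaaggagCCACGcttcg
Hsp90b1, chr10:86705528-86705556, minus: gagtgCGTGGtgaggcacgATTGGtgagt
Derl3, chr10:75893237-75893265, plus: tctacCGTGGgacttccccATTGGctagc
Creld2, chr15:88819515-88819543, plus: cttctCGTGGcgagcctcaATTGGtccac
Pou2af1, chr9:51213624-51213641, plus: tgtgaTGACGTGGcccct

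The first base of the element lay 65 bases before the start in Hspa5, 212 and 107 before it in Hsp90b1, 156 in Derl3 and 126 in Creld2. These positions are counted from the RefSeq start. The gene coordinates given above come from another annotation, GENCODE, in which the Hspa5 site lies after the start. The last sequence holds TGACGTGG, the core of the unfolded protein response element, 61 bases before the start of Pou2af1, the only one of the 8 windows with it and against 0.676% of all windows. The shorter CCACG, which ERSE, ERSE-II and, on the other strand, TGACGTGG contain, was in 7 of 8 member windows and in 32.8% of all. ERSE-II (ATTGG and CCACG with 1 base between them) and the octamer (ATGCAAAT) were in none of the 8, and in 0.0365% and 1.74% of all windows. Both strands were searched for every motif. The 4 genes with ERSE include the member most restricted to plasma cell-like cells, Derl3, and the least restricted, Hspa5. A match of letters is a description and not a measured binding site.

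Across classes, the members fell near different genes. Likeness was the Pearson correlation of log2 levels over 30 points, 15 cell classes in each of 2 libraries, among 12311 genes, and it is a description since the points share libraries and depth. Mzb1 was most like Pou2af1 (r = 0.95), Ly6d (0.92) and Ighm (0.91), and Pou2af1 was most like Ly6d (0.97), Mzb1 (0.95) and Cd79a (0.94), all B lineage genes. Hsp90b1 was most like Dnajb11 (0.95), Manf (0.95) and Lman1 (0.93). Creld2 was most like Edem2, Hsp90b1 and Hyou1 (0.91 each), and Xbp1 most like Creld2 (0.90), Sec61a1 (0.87) and Selenos (0.85). These neighbours are genes of the ER. Derl3 was most like Eaf2 (0.93), Prg2 (0.87) and Txndc11 (0.87), and Edem1 most like Edem2 (0.87), Bhlha15 (0.83) and Herpud1 (0.82). Hspa5 was most like Selenos, Fkbp2 and Pdia6 (0.86 each). Sdc1 had the loosest neighbours, Hsp90b1 (0.79), Spcs1 (0.77) and Slc35b1 (0.77).

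**Figure D3:**
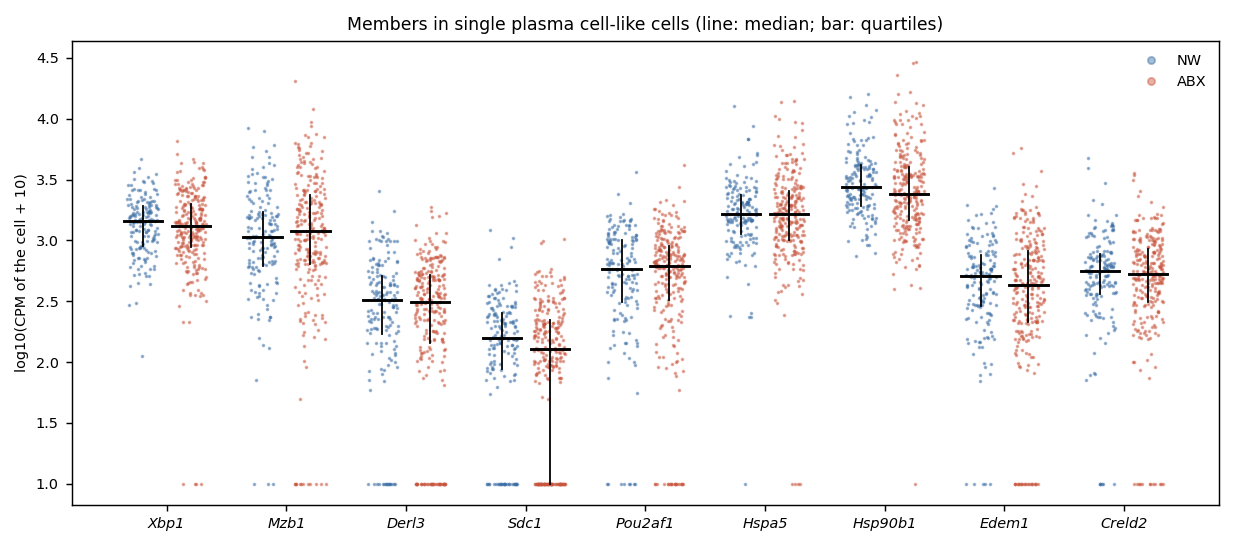
Each point is 1 plasma cell-like cell, as log10 of its CPM plus 10, with NW in blue (163 cells), ABX in red (260 cells), a line for the median and a bar for the quartiles. The clouds of the 2 libraries overlap for each gene, and the points at 1.0 are cells with no UMI.

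Plasma cell-like cells varied widely among themselves. The UMIs of Mzb1 in a cell ran from 0 to 140 in NW (median 13) and from 0 to 345 in ABX (median 14), those of Hsp90b1 from 2 to 331 (median 37) and 0 to 407 (median 27), and those of Hspa5 from 0 to 277 (median 22) and 0 to 246 (median 19). Xbp1 was more even, from 1 to 86 in NW and 0 to 78 in ABX. Over cells, Mzb1 and Hsp90b1 correlated at r = 0.55 in NW and 0.61 in ABX, and Hspa5 and Hsp90b1 at 0.56 and 0.52. These correlations are of log2 levels scaled without immunoglobulin genes (a pseudocount of 100), over the 163 NW or 260 ABX cells, which share the capture and depth of their library.

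The order of cells ranked by immunoglobulin share depended on the scale and the gene. In CPM, Xbp1 differed little between the ends of the order. It stood at 1540 in the 41 NW cells with the lowest share (median 30.7%) and 1495 in the 40 with the highest (median 54.1%). In ABX, groups of 65 cells from the lowest share to the highest stood at 1554, 1440, 1760 and 1539. At the same ends, Pou2af1 stood at 665 and 761 in NW and 639 and 621 in ABX. Scaled by the UMIs outside immunoglobulin genes, which raises every other gene more where the share is high, Xbp1 stood at 2215 and 3304 in NW and 2139 and 3440 in ABX, and Pou2af1 at 957 and 1682, and 879 and 1389. Hsp90b1 was lower in the cells with most immunoglobulin on both scales, at 5387 and 2714 CPM in NW and 6184 and 1819 in ABX, and on the second scale at 7747 and 5998, and 8512 and 4065. Mzb1 had the same order, at 2117 and 1141 CPM in NW and 3093 and 1079 in ABX, and on the second scale at 3045 and 2523, and 4257 and 2411. Hspa5 did not share it throughout, since on the second scale it stood at 3853 and 4157 in NW and 3811 and 3127 in ABX. Creld2 stood there at 1353 and 1266, and 1114 and 1032. These levels are sums over the cells of each group. Over single cells, log2 levels on the second scale correlated with the immunoglobulin share at r = -0.06 in NW and -0.03 in ABX for Hsp90b1. For Mzb1 the values were 0.06 and 0.03, and for Xbp1 0.37 and 0.44. On the second scale, the order of Hsp90b1 and Mzb1 in the sums was thus not seen over single cells. No such correlation was made in CPM, so the order in CPM was not checked over single cells.

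Cells with UMIs of proliferation genes were higher in 3 members in both libraries. At least 2 UMIs of Mki67 and Top2a were present in 25 of 163 NW and 50 of 260 ABX plasma cell-like cells. In these cells Mzb1 stood at 2367 CPM against 1309 in the other NW cells, and at 2847 against 1852 in ABX. Hsp90b1 stood at 4925 against 3405 in NW and 5969 against 3253 in ABX. Edem1 stood at 763 against 546 and 986 against 596. The intervals of the groups did not overlap for these 3 genes. Immunoglobulin genes took 39.9% of UMIs in the proliferating against 44.7% in the other NW cells, and 39.2% against 42.04% in ABX. The proliferating cells were also deeper, at a median of 14890 UMIs against 13495 in NW and 14482.5 against 11013 in ABX. Over single cells, log2 UMIs correlated with Mzb1, Hsp90b1 and Edem1 at r = 0.06, 0.10 and 0.07 in NW, and at 0.43, 0.32 and 0.25 in ABX. The part of depth in the higher levels was not tested. With 1 UMI as the limit, chosen after the data were seen, 7 members were higher.

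Between the 2 libraries, plasma cell-like cells had like levels of most members. A gene was called where the levels differed by at least 1.5-fold with an interval that left out no difference. Of the 9 members none was called, where 3.09% of the 2752 genes with at least 200 UMIs were higher in ABX and 2.54% lower. The median log2 ratio of ABX over NW was 0.037 over the members and 0.046 over all genes tested.

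Mzb1 had the widest gap in these cells, with 3276 UMIs in NW and 6248 in ABX, a log2 ratio of 0.47 (95% interval 0.41 to 0.53). Left without the 2 cells of each library with the most UMIs of each member (10 NW and 14 ABX cells), it was 0.33. Edem1 followed at 0.23 (0.12 to 0.33), and at 0.080 without those cells. Pou2af1 was lower in ABX by a log2 ratio of -0.12 (-0.22 to -0.02). The Xbp1 ratio was 0.04 (-0.03 to 0.10). The intervals of all 9 members lay inside the called size, but they hold counting error only, without the spread between cells or mice. They therefore cannot leave out a change of that size between the conditions. Without the top cells, the Mzb1 and Edem1 ratios fell outside their own intervals. Since those cells were chosen by their UMIs of the members, Mzb1 and Edem1 included, the lower ratios are a description. The proliferation list summed to 104 CPM in NW and 164 in ABX plasma cell-like cells, and without the cells with at least 2 UMIs of Mki67 and Top2a the Mzb1 ratio was 0.50.

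**Figure D4:**
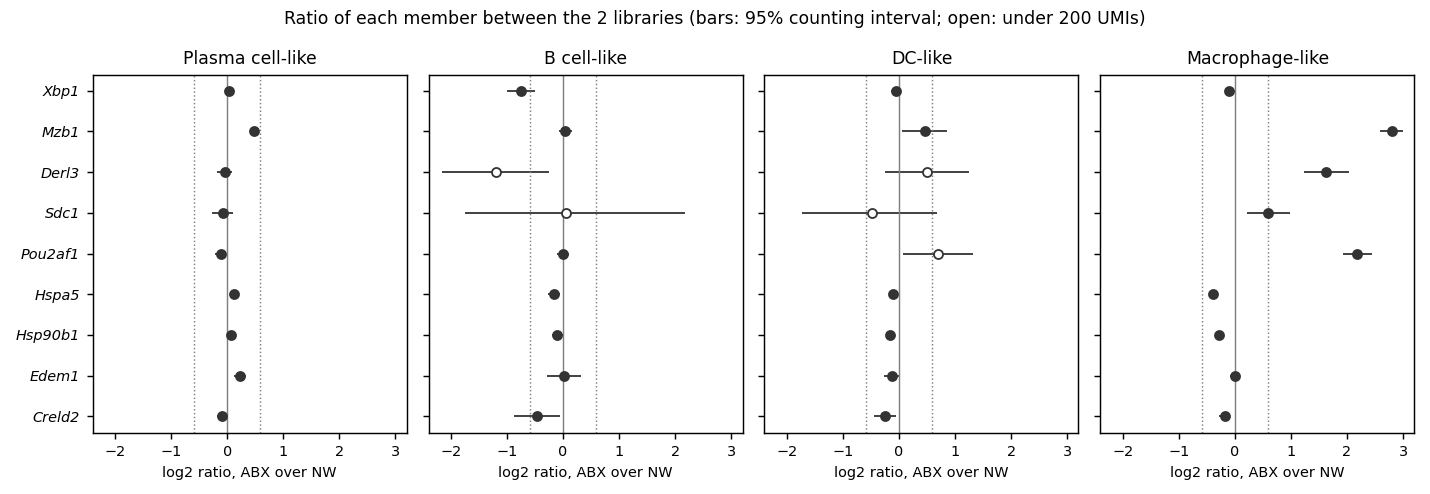
Log2 ratio of ABX over NW for each member in 4 cell classes, with bars for the 95% counting interval, open points for genes with under 200 UMIs and dotted lines at 1.5-fold. All 9 members lie between the dotted lines in plasma cell-like cells, Xbp1 and Derl3 (under 200 UMIs) lie below them in B cell-like cells, and Mzb1, Derl3, Pou2af1 and, by little, Sdc1 lie above them in macrophage-like cells.

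The rest of the secretory pathway gave the same picture in plasma cell-like cells. Of 77 genes listed for it, 76 are in the tables, 73 had 200 UMIs, and none was called in either direction. Their median log2 ratio was -0.058. Among the regulators, Atf4, a factor of the integrated stress response, stood at 452 CPM in NW and 396 in ABX, Ell2, an elongation factor of immunoglobulin secretion, at 303 and 313, and Prdm1 at 249 and 245. The disulfide isomerases Txndc5 and Pdia4 stood at 1519 and 1825, and at 732 and 801, and the lectin chaperone Calr at 1236 and 1198. Of the degradation genes, Herpud1 stood at 1863 and 1869, Selenos at 368 and 369, and Sel1l at 647 and 502, the lowest ratio of the named genes (log2 -0.37, -0.47 to -0.26). The signal peptidase gene Sec11c stood at 971 and 1074, Ssr4 of the translocon-associated complex at 674 and 655, and Krtcap2 of the oligosaccharyltransferase at 673 and 633. The traffic genes Tmed10, Tmed2 and Kdelr1 stood at 607 and 532, 348 and 314, and 272 and 254.

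In B cell-like cells (355 NW, 941 ABX) 7 members had at least 200 UMIs, and 1, Xbp1, was called lower in ABX. Over all 4724 genes tested there, 3.37% were called lower and 0.741% higher. Xbp1 stood at 126 CPM in NW (225 UMIs) and 74.3 in ABX (322 UMIs), a log2 ratio of -0.76 (-1.01 to -0.50), and 29.6% and 23.9% of the cells had a UMI. Without the cells with at least 10 Xbp1 UMIs the ratio was -0.61. The call was lost when the level was the mean over cells (-0.48) and with 50 principal components (-0.52). The other members tested had ratios between -0.47 and 0.04, with Mzb1 at 467 and 479, Pou2af1 at 587 and 584, and Creld2 at 43.5 and 31.4. Genes of the dissociation stress list summed to 10083 in NW and 8476 in ABX B cell-like cells, the 10 macrophage markers to 2622 and 1370 (at least 3 UMIs in 56.6% and 36.0% of the cells), and 4 plasma cell markers to 123 and 89.8 (8.17% and 2.87%). Macrophage-like and plasma cell-like cells had more Xbp1 than B cell-like cells. The part of these genes in the Xbp1 value was not tested. Of 61 pathway genes tested in these cells, 2 chaperones were called lower and none higher.

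In DC-like cells (1666 NW, 1224 ABX), 6 members had enough UMIs and none was called, with 0.754% of 8358 genes called higher and 1.35% lower. Xbp1, which conventional type 1 dendritic cells are known to keep active, stood at 192 and 184 CPM. Hspa5 stood at 769 and 711, and Hsp90b1 at 624 and 560. Mzb1, at 8.18 and 11.2, had 42.9% of its NW UMIs and 30.4% of its ABX UMIs in 1 cell of each library. Of 73 pathway genes tested in DC-like cells none was called.

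Outside these classes, Mzb1 and Pou2af1 were called higher in ABX in 3 classes each. In macrophage-like cells (5872 NW, 5080 ABX), Mzb1 stood at 6.58 CPM in NW and 45.7 in ABX (log2 ratio 2.79), Pou2af1 at 4.67 and 21.1 (2.18), Derl3 at 2.24 and 6.90 (1.62), and Sdc1 at 3.26 and 4.93 (0.60). These 4 of 9 members were called higher, where 3.08% of 10178 genes were called higher and 1.13% lower. The 8 B cell markers moved with them, from a sum of 41.3 CPM in NW to 145 in ABX (at least 3 UMIs in 0.613% and 1.38% of the cells), and immunoglobulin genes held 0.194% and 0.439% of the UMIs. Much of the members' UMIs lay in few cells. In ABX, 14 of the 5080 macrophage-like cells had at least 10 Mzb1 UMIs, and they held 79.0% of the Mzb1 UMIs, 59.9% of Pou2af1 and 59.5% of Derl3. They had a median of 15576 UMIs, 15.3% immunoglobulin UMIs, all 9 members and 4 of the 10 macrophage markers, where the other cells of the class had a median of 4073.5 UMIs and 9 of those markers. In NW, 2 of 5872 cells held 34.5% of the Mzb1 UMIs. Whether such cells are 2 cells in 1 well was not tested. Without them Mzb1 stood at 4.32 and 9.72 (log2 1.17) and Pou2af1 at 3.68 and 8.57 (1.22). Since the cells were left out by their Mzb1 UMIs, the lower Mzb1 ratio follows from the choice and is a description. Sdc1 then stood at 3.21 and 3.53 (0.14), and Derl3 had 63 and 64 UMIs left, too few for a call. Hspa5 and Hsp90b1 were lower in ABX without being called, at 1534 and 1164 (log2 -0.40) and 1201 and 985 (-0.29).

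**Figure D5:**
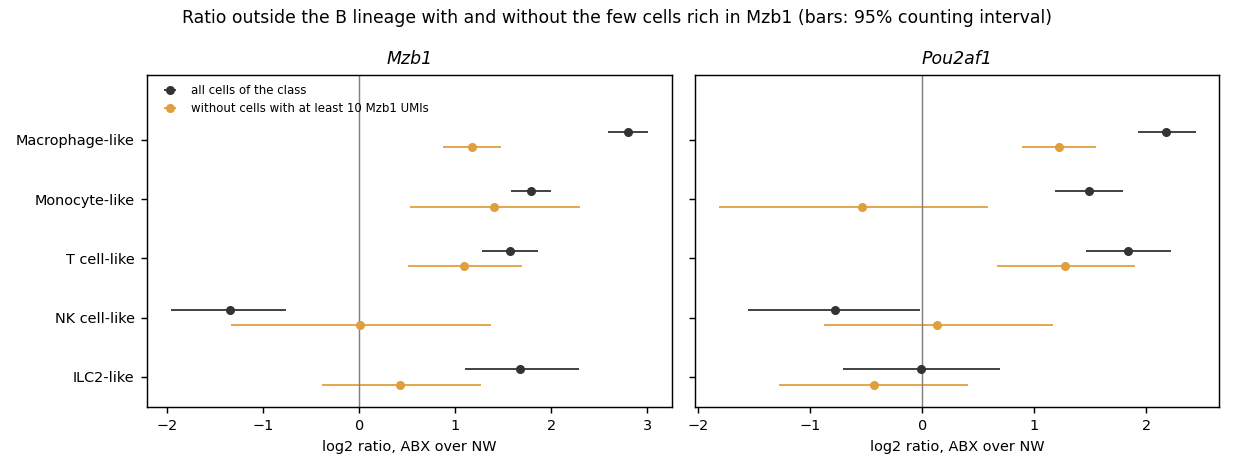
Log2 ratio of ABX over NW of Mzb1 and Pou2af1 in 5 classes outside the B lineage, over all cells (dark) and without cells with at least 10 Mzb1 UMIs (orange), with 95% counting intervals. The cells left out were chosen by Mzb1 itself, so its move from 2.79 to 1.17 in macrophage-like cells follows from the choice, and the monocyte-like ratio of Pou2af1 moves from 1.48 to -0.54.

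Monocyte-like cells followed the same pattern. Mzb1 stood at 75.8 in NW and 261 in ABX (log2 1.78) and Pou2af1 at 40.2 and 113 (1.48), both called higher, with the B cell markers at 181 and 315, while Sdc1 was called lower, at 43.4 and 26.7 (-0.70). Over 4812 genes tested, 2.89% were called higher and 5.78% lower. Here 6 NW and 9 ABX cells held 92.8% and 94.98% of the Mzb1 UMIs. Without them Pou2af1 had 27 UMIs left in NW and 9 in ABX, too few for a call, and Sdc1 kept its ratio (-0.64). In T cell-like cells Mzb1 stood at 18.6 and 55.0 and Pou2af1 at 10.4 and 36.9, both called higher, with the B cell markers at 76.1 and 199.8, against 1.44% of 7911 genes called higher and 2.4% lower. There, 2 NW and 7 ABX cells held 71.7% and 80.2% of the Mzb1 UMIs, and without them both genes had under 200 UMIs.

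NK cell-like cells (325 NW, 390 ABX) had 3 of 4 members tested called lower in ABX. Xbp1 stood at 160 and 89.8, Hsp90b1 at 890 and 559, and Edem1 at 111 and 66.8, where 0.709% of 2538 genes were called lower and 0.473% higher. Of the NW UMIs, 34.4% of Xbp1 and 16.8% of Hsp90b1 lay in 2 cells with at least 10 Mzb1 UMIs, and without such cells none of the 3 was called. Their ratios then stayed below 0, at log2 -0.33 for Xbp1 (was -0.83), -0.52 for Hsp90b1 (was -0.67) and -0.58 for Edem1 (was -0.73), the last with under 200 UMIs left. In ILC2-like cells (756 NW, 1243 ABX) none of 5 members tested was called, with 0.817% of 6000 genes called higher and 2.57% lower, and Xbp1 stood at 238 in both libraries. Over these 5 classes 12 values were called, and 3 without the cells with at least 10 Mzb1 UMIs.

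Summed over all cells, 3 members were called higher in ABX, Mzb1 at 70.0 and 180 CPM (log2 1.36), Pou2af1 at 45.9 and 96.7 (1.07), and Derl3 at 14.9 and 26.0 (0.80). Of 12311 genes, 8.22% were called higher and 1.93% lower. The same genes had ratios of 0.47, -0.12 and -0.05 within plasma cell-like cells. The share of plasma cell-like cells was 1.31% in NW and 2.04% in ABX, and that of B cell-like cells 2.85% and 7.40%. In such a sum, more cells of a class and more RNA per cell cannot be told apart.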

How the data were processed

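Per the study's methods, CD45+ cells were stained with oligonucleotide-tagged antibodies, captured in BD Rhapsody microwells, and read with the maker's whole transcriptome pipeline against the mouse genome (GRCm38). The authors deposited, for each of 2 libraries, a table of raw UMI counts per cell and gene, with antibody counts beside them. The deposited counts were not normalized. Of 10 antibody columns, 8 were used.

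Cells were filtered as stated, log-normalized and clustered in Seurat 5.3.0 (R 4.3.3) on 2000 variable genes, 30 principal components and the weighted neighbours of mRNA and antibodies, at resolution 0.6, which gave 28 clusters. A cluster was called "X-like" from at least 3 markers of its list, by rules adjusted after clusters of these data had been seen. No doublet caller was run. UMIs were summed per class and library, with exact Poisson intervals for levels, Clopper-Pearson intervals for shares and the exact conditional interval for ratios (scipy 1.17.1). Genes with at least 200 UMIs in a class were compared. The code was tested on simulated data. The members, gene lists and tests were chosen with earlier results of these data known. All 9 members are named, with the 3 genes of each pathway list that had most UMIs in plasma cell-like cells and, for each member, the 3 genes of most like pattern (a pseudocount of 1 on the log2 scale). Other clusters and genes were singled out after their values were seen.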

Additional observations from a re-analysis of the deposited data

Results flagged for a closer look

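Sdc1 differed in opposite directions in 2 classes under the same contrast: it was higher in ABX in macrophage-like cells (log2 0.60) and lower in monocyte-like cells (-0.70), a gap of 1.30 on the log2 scale. The difference itself was not tested. Without the cells with at least 10 Mzb1 UMIs the macrophage-like ratio was 0.14 (-0.29 to 0.56) and the monocyte-like ratio -0.64 (-1.14 to -0.16).

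The barcodes that the filters left out, which enter no comparison, also held the members. In NW 5188 such barcodes (median 599.5 UMIs) held 3789 UMIs of the 9 genes, and in ABX 5061 barcodes (median 515 UMIs) held 2722. Most were Hspa5 (1577 and 993 UMIs) and Hsp90b1 (1443 and 1081). Derl3 had 12 and 25 UMIs there, and Mzb1 26 and 68.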

How the results depend on the processing

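The count of members called between NW and ABX in plasma cell-like cells was 0 under all 13 alternatives run, and their median log2 ratio ran from -0.066 to 0.049. In B cell-like cells the count moved from 1 to 0 with 50 principal components and with a 2-fold limit, and to 2 (Xbp1 and Creld2) at resolution 1.0 and for clusters made without the members, pathway lists and plasma and B cell markers. With the mean over cells it was 1, but Creld2 (-0.63) in place of Xbp1 (-0.48). Over these alternatives the Xbp1 ratio ran from -1.11 to -0.48. In DC-like cells the count moved from 0 to 1 with the mean over cells and with a minimum of 50 UMIs. It was also 1 for the clusters made without those genes, and 2 with 50 principal components, where Mzb1 stood at 1.11. That last setting changed the classes themselves. It had 2075 NW and 1596 ABX DC-like cells (1666 and 1224 in the main clustering), and 146 and 83 monocyte-like cells (754 and 596). The shares of all genes called under these alternatives are not given. In the other classes the count moved from 12 to 3 without cells with at least 10 Mzb1 UMIs. There the Pou2af1 ratio of monocyte-like cells reversed to -0.54. Among plasma cell-like cells, the members higher in proliferating cells moved from 3 to 7 with 1 UMI as the limit. Beyond what the alternatives' own construction gives, the cause of these moves was not tested. Leaving out cells with at least 3 UMIs of other lineages' markers left 0 NW and 5 ABX plasma cell-like cells and 3 and 25 B cell-like cells, so no value could be given. The alternatives that leave out cells by their Mki67 and Top2a, Ighm, immunoglobulin, Xbp1 or Mzb1 UMIs, by the top cells or by the pDC-like cluster were chosen after seeing the data. No paired analysis was possible because each condition had 1 library. Derl3 and Sdc1 did not reach 200 UMIs in B cell-like or DC-like cells, so no call was possible for them there. The same held for Pou2af1 in DC-like cells (44 UMIs in NW and 47 in ABX).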
